A study of Mus musculus with 48 samples.

Results

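The T cells of lung, skin, and spleen were the cells that carry the authors' deposited label T cells and come from 1 of these 3 organs. They numbered 344 of 12096 annotated cells, with 78 of 814 annotated cells in lung, 31 of 1167 in skin, and 235 of 3320 in spleen. Another 161 cells with the same label came from joint and 1283 from muscle. RNA of single cells had been measured with Seq-Well, in which each cell shares a nanowell with a barcoded bead and each transcript is counted by its unique molecular identifier (UMI). The organs came from 10 male DBA1/J mice aged 8 to 12 weeks, each of which gave 1 sample per organ, so that samples with the same mouse name share an animal. Mice H3, H4, H6, and H7 were healthy and had been injected with PBS. Mice S1, S2, S3, S5, S6, and S8 had collagen-induced arthritis (CIA), after bovine collagen II in complete Freund's adjuvant and a booster in incomplete Freund's adjuvant, which the healthy mice did not receive. Adjuvant and collagen were therefore given together, and their parts in a difference cannot be told apart. H3, S1, S2, and S3 belonged to the experiment with the sample prefix 2CIA, and the other 6 mice to the experiment with the prefix CIA. The arthritis score was 8 in S1, S2, and S3 and at most 5 in S5, S6, and S8, so that severity and experiment cannot be told apart among the CIA mice. All organs had been cryopreserved. Lung and skin were digested with collagenase and DNase, whereas spleen was strained without enzyme and its red cells were lysed, so that organ and dissociation also cannot be told apart.

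T cells recognise antigen through a receptor made of an alpha and a beta chain, or of a gamma and a delta chain, which signals through the CD3 proteins. Naive T cells circulate through lymphoid organs such as the spleen, whereas lung and skin hold T cells that stay in the tissue. In mouse epidermis, these include dendritic epidermal T cells, a gamma-delta population with a nearly invariant receptor that uses the delta variable segment Trdv4. The spleen of a mouse is in addition a site where blood cells are formed.

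The label was first checked against genes of the receptor, which stood above the other cells of the organ in lung and skin but not in spleen. In lung, the cells with the label also carried B cell genes above the other lung cells, with 4420 against 496 CPM (counts scaled to a common library size) over a list of 9 genes and in 8 of 9 mice, and 32 of the 78 cells had a UMI of that list. The receptor list comprised 7 genes, namely *Cd3d*, *Cd3e*, *Cd3g*, *Cd247*, *Trac*, *Trbc1*, and *Trbc2*, and its level is given in CPM. Lung T cells reached 1380 CPM and all other annotated lung cells 73.2 CPM, and the T cells were higher in each of the 9 mice with at least 3 T cells. Skin T cells reached 1414 CPM and the other skin cells 48.7 CPM, and they were higher in each of the 4 mice with at least 3 T cells. In spleen, cells labelled T cells reached 492 CPM, below the 600 CPM of the other spleen cells, and they were higher in 3 of 9 mice. At least 1 UMI of the receptor list was found in 26 of 78 lung T cells (33.3%), 18 of 31 skin T cells (58.1%), and 57 of 235 spleen cells labelled T cells (24.3%). The other cells of these organs had 4.08%, 3.96%, and 23.8%, respectively. Median UMIs per cell were 526.5, 558, and 793 in the T-labelled cells and 583.5, 731, and 654 in the other cells of lung, skin, and spleen, so the cells were also thinned to 400 UMIs each. A receptor UMI then remained in 23.1% of lung T cells and 1.92% of lung macrophages, and in 51.6% of skin T cells and 1.69% of skin basal III cells. In spleen, the thinned share was 16.2% in cells labelled T cells, 10.6% in B cells, 15.4% in dendritic cells, and 53.7% in cells labelled NK cells. By mouse, the spleen cells labelled T cells had a median of 537 CPM (0 to 2097), the cells labelled NK cells 2674 CPM (1935 to 3726), and the rest 280 CPM (236 to 515). The level in cells labelled NK cells was above that in cells labelled T cells in 9 of 9 mice, and the latter was above the rest in 7 of 9 mice. The spleen cells are therefore called spleen cells labelled T cells below. Lung T cells and skin T cells likewise mean all cells with the label, with or without a receptor UMI.

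**Figure D1:**
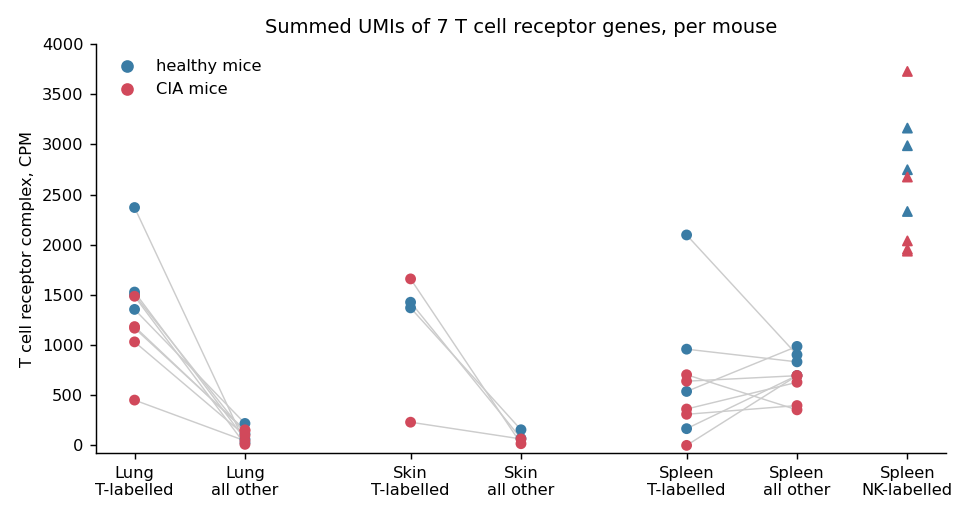
Summed level (CPM, linear scale) of the 7 T cell receptor genes per mouse in lung, skin, and spleen, with T-labelled cells and all other annotated cells of the same mouse joined by a line and spleen cells labelled NK cells as triangles, for mice with at least 3 T-labelled cells. The T cells lie above the other cells in 9 of 9 lungs and 4 of 4 skins, but in 3 of 9 spleens, where cells labelled NK cells have a median of 2674 CPM.

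Of the 4 genes that define the label in the annotation, *Bcl11b*, a transcription factor of T cell commitment, had 6 UMIs in lung, 1 in skin, and 3 in spleen. *Il7r*, the receptor for the survival cytokine IL-7, had 1, 1, and 9 UMIs, and *Lef1*, a factor of naive T cells, had 1, 0, and 11. *Cd3d*, a CD3 chain, had 5, 3, and 11. *Cd4* and *Foxp3*, the factor of regulatory T cells, were at 0 UMIs in all 3 organs, and *Cd8a* and *Cd8b1* had 1 UMI each, in spleen. A 0 for *Cd4* or *Foxp3* allows up to 3 UMIs, and at this depth helper, cytotoxic, and regulatory T cells could not be counted. The beta constant segments had 25, 6, and 36 UMIs of *Trbc1* (chromosome 6, 41538218 to 41539881, plus strand, GRCm38) and 17, 9, and 40 UMIs of *Trbc2* (chromosome 6, 41546730 to 41548352, plus strand) in lung, skin, and spleen.

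T cells were few in most samples. Lung gave 7, 25, 7, and 4 T cells in H3, H4, H6, and H7 and 9, 7, 6, 8, 5, and 0 in S1, S2, S3, S5, S6, and S8. Skin gave 2, 8, 2, and 7 in the healthy mice and 4, 6, 1, 0, 1, and 0 in the CIA mice, and spleen 25, 9, 5, and 11, and 36, 68, 46, 30, 1, and 4, in the same order. Samples with at least 3 T cells, which entered the comparisons of genes, held 2214 to 13745 UMIs in lung (9 samples), 2411 to 4907 in skin (4 samples), and 2998 to 83925 in spleen (9 samples). Of the members, 2 cells had a barcode that was found in more than 1 library, and none had over 6000 UMIs. The median mitochondrial share was 11.7% in lung T cells, 11.5% in skin T cells, and 8.50% in spleen cells labelled T cells.

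As a share of all annotated cells of the organ, T cells were more frequent in lung than in skin. The share was 9.38% ± 4.58 in lung, 3.29% ± 3.76 in skin, and 8.16% ± 8.77 in spleen (mean ± SD, n = 10 mice). Lung exceeded skin in 9 of 10 mice and both were 0 in S8, with a difference of 6.09 percentage points (two-sided exact permutation test over paired mice, p = 0.00391, adjusted p = 0.0117 over 3 pairs of organs), the smallest p that 9 mice with a difference allow. Lung and spleen differed by 1.22 points (exact adjusted p = 0.609), with lung higher in 5 of 10 mice, and skin and spleen by -4.87 points (exact adjusted p = 0.270). The highest share was 29.9% in the spleen of S3, and the other spleens had 0.671% to 15.2%. No T cell was found among 30 cells in the lung of S8, which allows up to 10%, among 159 in the skin of S5 (up to 1.89%), or among 90 in the skin of S8 (up to 3.33%), and these limits cover counting error only. With T cells counted only where they had a receptor UMI, lung and skin differed by 0.780 points (2.72% against 1.94%, exact adjusted p = 0.773), and in the experiment CIA alone by 5.07 points (exact adjusted p = 0.0938, where 0.0625 was the smallest unadjusted p). Shares also depend on the cells counted with them. Without the most frequent label of each organ, namely macrophages in lung, basal III cells in skin, and B cells in spleen, T cells comprised 53.9% in lung and 12.1% in spleen, a difference of 41.7 points (exact adjusted p = 0.00586).

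CIA and healthy mice had overlapping shares in each organ. The mean was 8.00% in CIA and 11.5% in healthy lungs (exact permutation p = 0.295), 1.56% and 5.88% in skin (p = 0.0952), and 9.30% and 6.45% in spleen (p = 0.790), with adjusted p from the exact tests of 0.443, 0.286, and 0.790. With T cells counted only where they had a receptor UMI, the means were 1.95% in CIA and 3.87% in healthy lungs (exact permutation p = 0.0571). In skin they were 0.555% and 4.01% (exact permutation p = 0.0381), and in spleen 2.01% and 2.41% (exact permutation p = 0.771). The adjusted p from these exact permutation tests was 0.0857, 0.0857, and 0.771, so no organ passed 0.05. Shares of cells do not tell a loss of T cells from a gain of other cells.

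**Figure D2:**
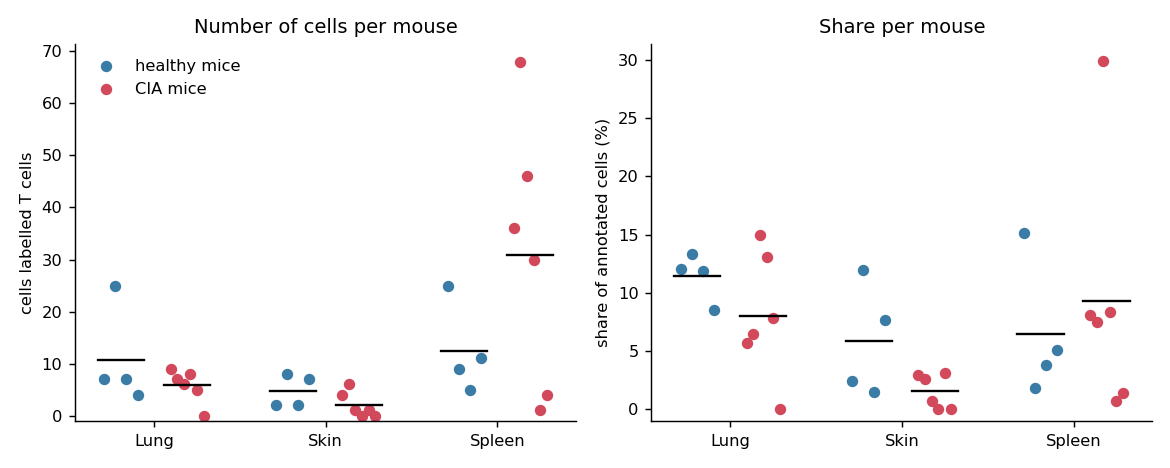
Number of T-labelled cells per mouse (left) and their share of annotated cells in percent (right) in lung, skin, and spleen, where each point is 1 of 4 healthy or 6 CIA mice and bars are means. Lung averages 9.38% and skin 3.29%, and the spleen of S3 stands apart at 29.9%.

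In lung, the genes with the highest levels in T cells against the other lung cells were ranked among 459 genes with at least 15 UMIs. Since the labels were made from these same cells, such rankings describe them in each organ and were not tested. *Trbc1* led with 37.9 times the CPM of the other cells, from 25 UMIs in 15 cells of 9 mice, and *Trbc2* stood at 10.6 times. *Satb1*, a chromatin organiser of T cells, stood at 13.9 times, *Cd69*, an early activation and residency marker, at 7.38 times, and *Ccl5*, a chemokine of cytotoxic lymphocytes, at 4.90 times. Antibody genes stood in the same ranking, with *Ighm* at 24.5 times, *Igkc* at 6.87 times, and *Iglc2* at 6.25 times. Of the 83 *Ighm* UMIs, 71 came from 1 cell of H4, but B cell genes were not limited to that cell. Without H4, *Ighm* stood at 4.36 and *Igkc* at 2.95 times. Levels without the mouse with most UMIs of a gene, here and in the rankings of skin and spleen, were an alternative chosen after seeing the data. Of the 78 lung T cells, 27 had a UMI of an alpha-beta, CD3, or gamma-delta gene, 32 of the B cell list, 4 of both, and 23 of neither. In the whole lung, 4 annotated cells carried the label B cells and 8 the label NK cells. The macrophage list stood at 2350 against 22248 CPM and the lung epithelium list at 2868 against 36885 CPM.

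In skin, H4 carried a large part of the UMIs of several leading genes, with 75% of *Trdv4*, 57.6% of *Rgs1*, 56.5% of *Rgs2*, and 68.2% of *Ctla2a*. *Trdv4* (chromosome 14, 54074905 to 54075515, plus strand, GRCm38) led with 53.7 times the CPM of the other skin cells, from 16 UMIs in 7 cells of 3 mice, and without H4 it stood at 23.3 times from 4 UMIs. *Xcl1*, a chemokine for cross-presenting dendritic cells, followed at 48.0 times, and *Rgs1*, a brake on chemokine receptor signals that is high in resident T cells, at 31.4 times (25.8 times without H4). *Cd53* and *Emb* stood at 20.4 times (*Emb* at 11.3 times without H7, which had 55% of its UMIs), *Srgn*, the proteoglycan of secretory granules, at 12.7 times, and *Id2*, a regulator of innate and effector lymphocytes, at 3.99 times. As groups, the tissue residency list (10 genes) reached 2828 CPM against 197 CPM in other skin cells, the cytotoxic effector list (17 genes) 2071 against 78.8 CPM, and the coreceptor and costimulation list (10 genes) 909 against 13.3 CPM. The keratinocyte list was at 1566 against 11269 CPM and the fibroblast list at 656 against 7874 CPM.

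The receptor kinds differed between mice in skin. Gamma-delta genes (*Trdc*, *Trdv4*, and 4 gamma genes) had 25 UMIs in 8 of 31 skin T cells, and the alpha and beta constant genes had 16 UMIs in 9 cells, 2 of them in common. Of the gamma-delta UMIs, 18 came from 5 of the 8 cells of H4, in which no alpha or beta UMI was found. H7 had 6 gamma-delta and 5 alpha-beta UMIs, S2 had 1 and 0, S1 had 0 and 3, and H6 had 0 and 6. In CPM, the gamma-delta list stood at 4111 in H4, 1223 in H7, 0 in S1, and 231 in S2. The gamma-delta share of all alpha-beta and gamma-delta UMIs was 61.0% in skin, 4% in lung (2 gamma-delta and 48 alpha-beta UMIs), and 9.35% in spleen (10 and 97 UMIs), a description over all cells of an organ in which 1 skin gave most of the UMIs.

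The genes that led the spleen cells labelled T cells included no gene of the receptor list. Among 1569 ranked genes, *Ctsg* stood at 7.60 times the CPM of the other spleen cells, *Mpo* at 6.26 times, and *Prtn3* at 4.76 times (14.7 times without S2), all proteins of the primary granules that neutrophil precursors make. The cell cycle regulator *Cdk6* stood at 7.06 times, the progenitor factor *Sox4* at 6.04 times, and *Tyms*, *Pclaf*, and *Dut*, which serve DNA synthesis, at 3.93, 3.89, and 3.69 times. A list of 5 myeloid precursor genes (*Mpo*, *Prtn3*, *Ctsg*, *Elane*, and *Ms4a3*), written after these values were seen, summed to 1573 CPM against 410 CPM in other spleen cells. Its genes were found in 57 of 235 cells, of which 9 also had a receptor UMI, and its level was above that of the other cells in 5 of 9 mice. These were 17 of 36 cells in S1, 21 of 68 in S2, 12 of 46 in S3, and 4 of 25 in H3, all of the experiment 2CIA. H4 gave 1 such cell, S5 gave 2, and H6, H7, S6, and S8 gave 0, so these genes came mostly from the mice with score 8. Of 5 stem and progenitor genes, the sum was 450 against 56.8 CPM, higher in 8 of 9 mice, and that of 4 basophil genes was 653 against 26.0 CPM. For the basophil proteases, 87 of 94 UMIs of *Mcpt8* and 59 of 60 of *Prss34* came from 1 cell of S2. The cell cycle list was higher in 9 of 9 mice (3945 against 2768 CPM). B cell genes were lower than in the other spleen cells in 9 of 9 mice (4936 against 16377 CPM), although a UMI of the B cell list was found in 193 of the 235 cells (82.1%, against 87.9% of the other cells).

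**Figure D3:**
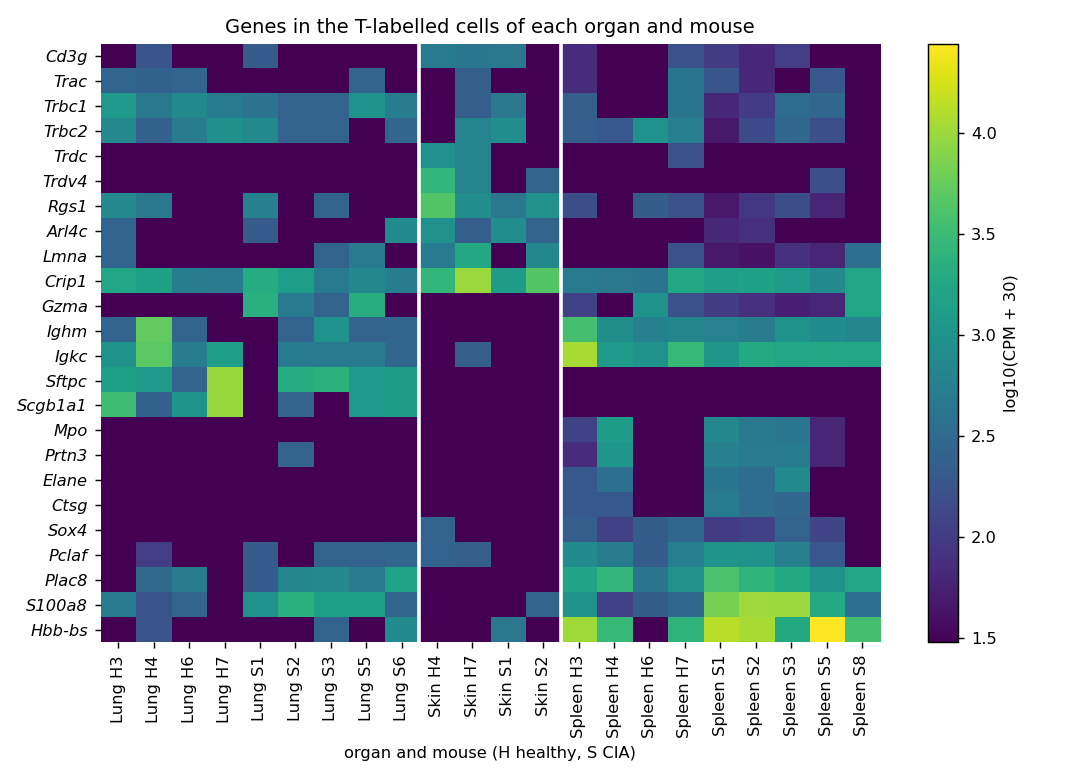
Levels of 24 genes (rows) in the T-labelled cells of 22 samples (columns), as log10 of CPM + 30, with samples ordered by organ and then by mouse. *Trbc1* is seen in 9 of 9 lungs, *Trdv4* is seen in 3 of 4 skins and in 1 spleen, and *Mpo* is seen in 6 of 9 spleens but in no lung or skin.

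The organs were compared over 22 samples by edgeR's quasi-likelihood test, with disease as a term, on 3580 genes. The result depends on the scaling. TMMwsp factors, chosen for the fit, ranged from 0.51 in the deepest to 2.22 in the shallowest sample and moved the median log2 difference of all genes to -0.99 between lung and spleen and to -1.23 between skin and spleen. With plain library size, these medians were -0.11 and -0.30. Genes are therefore described mainly where they passed an adjusted p of 0.05 under both scalings, and "higher" and "lower" in the organ comparisons refer to these genes unless stated. Against spleen, this rule kept 10 of the 56 genes higher in lung with plain library size and all 58 lower. It kept 5 of 32 genes higher in skin and all 13 lower, so the split by direction depends on the scaling. All log2 differences come from the fit with TMMwsp factors, whereas a bound on a fold against a group at 0 UMIs is computed from plain library sizes and can therefore exceed the fitted difference. Members of the lists below stand beside the background, which is the percentage of all tested genes that were called.

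Between lung and skin T cells, 12 of 3580 genes (0.335%) were called, 5 higher in lung and 7 higher in skin, and all 12 also with plain library size, which called 5 higher and 14 lower in lung. *Trdv4* was lower in lung, with 0 UMIs in all 9 lungs and 12, 3, 0, and 1 in the skins of H4, H7, S1, and S2 (log2 difference -5.81 ± 1.12 SE, adjusted p = 0.000834). Against the 3 counts that 0 allows over the 9 lungs, it was at least 15.4-fold lower. *Crip1*, a small LIM protein of memory lymphocytes, had 2741, 9782, 1244, and 4389 CPM in the skins of H4, H7, S1, and S2 and 452 to 2043 CPM (median 701) in the lungs (-2.07 ± 0.51, adjusted p = 0.0173). The groups overlapped only in S1. *Lgals1*, which encodes galectin-1 (-2.89 ± 0.69, adjusted p = 0.0117), and *S100a6*, a calcium-binding protein (-3.19 ± 0.74, adjusted p = 0.00733), were also higher in skin, as were the small RNA genes *Vaultrc5* (-3.34), *Snord118* (-3.00), and *Gm25939* (-5.05).

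The 5 genes higher in lung than in skin T cells were *Lyz2*, *Sftpc*, *Scgb1a1*, *Ighm*, and *Igkc*, which included 2 of the 2 lung epithelium genes tested, 2 of 8 of the B cell list, and 1 of 4 of the macrophage list. *Lyz2*, the lysozyme of macrophages, had 60 UMIs in 9 of 9 lungs and 0 in the 4 skins (6.61 ± 1.43, adjusted p = 0.00363, at least 6.91-fold). The other cells of the same organs had 15428 CPM of *Lyz2* in lung and 363 CPM in skin. *Sftpc* (6.85), the surfactant protein of alveolar type 2 cells, *Scgb1a1* (6.55), the secretoglobin of club cells, and the antibody genes *Ighm* (6.51) and *Igkc* (4.25) were the others. Of the 12 genes, 11 (91.7%) differed in the same direction between the other cells of lung and skin, against 52.9% of all genes tested. The part of RNA from other cells in these differences was not tested. With the mouse as a block, 3 of the 12 genes remained, namely *Lyz2*, *Sftpc*, and *Trdv4*. DESeq2 called 0 genes (108 at an unadjusted p below 0.05). Without H7, 1 gene was called, and in CIA mice alone 0 (106 at an unadjusted p below 0.05), with edgeR.

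Skin T cells against spleen cells labelled T cells gave 30 called genes of 3580 (0.838%), of which 18 (0.503%) passed under both scalings, 5 higher and 13 lower in skin. With plain library size alone, 45 were called, 32 higher and 13 lower. *Rgs1* had 4340, 815, 415, and 924 CPM in the skins of H4, H7, S1, and S2 and 0 to 192 CPM (median 59.6) in the spleens (3.03 ± 0.66, adjusted p = 0.00135), and the groups did not overlap. The lowest skin value was a single UMI of the 2411 in S1. Of all 3580 genes tested, 60 did not overlap between skin and spleen, and 12 of these were called. The call of *Rgs1* was lost without H4 (edgeR adjusted p = 0.24) and in CIA mice alone (edgeR adjusted p = 0.39). *Arl4c*, a small GTPase, had 914, 204, 830, and 231 CPM in the same skins and at most 47.7 CPM in a spleen (3.37 ± 0.88, adjusted p = 0.0232). *Trdv4* was higher in skin (3.74 ± 0.83, adjusted p = 0.00213), although its 4 spleen UMIs all came from 1 cell of S5. *Lmna*, a nuclear lamina gene, had 457, 1834, 0, and 693 CPM in skin (3.40 ± 0.78, adjusted p = 0.00355), and *Snord118*, a small nucleolar RNA, was the other gene higher in skin (2.36 ± 0.60, adjusted p = 0.0180). With the mouse as a block, edgeR called 33 genes, of which 23 were among the 30. The calls of *Rgs1*, *Trdv4*, and *Lmna* (edgeR adjusted p = 0.019 each) were kept, and those of *Arl4c* (adjusted p = 0.14) and *Snord118* (adjusted p = 0.098) were lost.

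The 13 genes lower in skin included 3 of the 8 B cell genes, 3 of the 3 erythroid genes, and 2 of the 7 granulocyte genes tested. *Plac8*, a gene of myeloid and lymphoid cells in spleen, had 0 UMIs in skin and 625 in spleen (-7.91, adjusted p = 2.99e-07, at least 12.6-fold lower). The immunoglobulin genes *Ighm* (0 against 247 UMIs, at least 4.98-fold), *Iglc2* (0 against 218, at least 4.39-fold), and *Igkc* (1 against 662 UMIs, log2 difference -6.58) and *Jchain*, the joining chain of secreted antibodies (0 against 105, at least 2.12-fold), were lower, as was the haemoglobin gene *Hbb-bs* (-7.75). Of the 18 genes, 94.4% differed in the same direction between the other cells of skin and spleen, against 55.6% of all tested genes, and the part of RNA from other cells was not tested. With 3 or more cells required, the count of 30 ranged from 14 without H4 to 86 without S8. It was 19 without H3, 49 without H6, 19 without H7, 17 without S1, and 16 without S2.

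Between lung T cells and spleen cells labelled T cells, 788 of 3580 genes (22.0%) were called, 10 higher and 778 lower in lung, but 68 (1.90%) under both scalings, 10 higher and 58 lower. With plain library size alone, 114 were called, 56 higher and 58 lower. Factors from genes found in every sample, chosen after seeing the data, gave 105 genes, 68 higher and 37 lower. With the mouse as a block, 368 were called, of which 363 were among the 788. The count was 495 without H3, 464 without S1, 314 without S2, and 522 without S3, and it was 9 in the experiment CIA alone, 11 in healthy mice alone, and 224 in CIA mice alone.

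Higher in lung under both scalings were *Sftpc* and *Scgb1a1*, with 73 and 53 UMIs in lung T cells and 0 in spleen. *Sftpc* was found in 8 of 9 lungs, at 0 to 9485 CPM (median 1289; 6.63 ± 0.74, adjusted p = 4.67e-16, at least 139-fold), and in the other lung cells at 19877 CPM. *Scgb1a1* (5.89 ± 0.77, adjusted p = 1.56e-11, at least 101-fold) stood at 21395 CPM in the other lung cells. These levels of other cells are means over mice, unlike the level of the lung epithelium list above, which pools all cells. *Slc38a1*, a glutamine transporter of activated lymphocytes, had 15 UMIs in 8 lung T cells of 6 mice and 9 UMIs in spleen (2.21 ± 0.68, adjusted p = 0.0127). *B4galt1*, a galactosyltransferase, had 34 and 26 UMIs (1.69 ± 0.54, adjusted p = 0.0167). *Chd8*, a chromatin remodeller, was higher by 2.45, and *Igha*, *Igkv3-7*, *Mir22hg*, *Gm37760*, and *AC158592.2* (2.55) were the remaining genes. For *Igkv3-7*, 14 of 15 UMIs came from 1 cell of H4. With the mouse as a block, *Sftpc* and *Scgb1a1* kept the call and the other 8 genes lost it, with edgeR adjusted p from 0.067 (*Mir22hg*) to 0.39 (*Igha*), 0.068 for *Slc38a1*, and 0.083 for *B4galt1*.

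The 58 genes lower in lung under both scalings included 3 of the 3 erythroid and 4 of the 7 granulocyte genes tested, besides genes of other kinds such as *Plac8*, *Igkc*, *Jun*, and *Rps24*. *Hba-a1* had 0 UMIs in lung and 667 in spleen (-8.13, at least 38.9-fold lower), and *Hbb-bs* was lower as well (-6.84 ± 0.52, adjusted p = 9.48e-36). *Mpo*, myeloperoxidase (chromosome 11, 87793581 to 87804413, plus strand, GRCm38), had 0 UMIs in lung and 111 in 6 of 9 spleens, with a median of 82.7 CPM and at most 1250 CPM (-5.65 ± 0.99, adjusted p = 3.84e-06, at least 6.48-fold lower). *Elane*, neutrophil elastase, had 0 against 87 UMIs (-5.17, adjusted p = 9.03e-05, at least 5.08-fold lower). *Prtn3* (1 against 105 UMIs, -4.19), *Ctsg* (0 against 69, -4.76), and *Ms4a3* (0 against 47, -4.45), chosen after their values were seen, were also lower, as were *Sox4* (-4.32), *Pclaf* (-3.24), and *Dut* (-3.44). Most spleen cells with a UMI of *Mpo*, *Elane*, *Prtn3*, *Ctsg*, or *Ms4a3* came from S1, S2, and S3. The ribosomal protein gene *Rps24* was among the genes lower in lung (-1.84 ± 0.38, adjusted p = 0.000241). In all, 57 of the 68 genes (83.8%) differed in the same direction between the other cells of lung and spleen, against 60.1% of all tested genes.

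Groups of T cell genes were read against these backgrounds. Of the 7 receptor genes, 6 were tested and edgeR called 0 between any pair of organs, with 1 at an unadjusted p below 0.05 (between lung and skin) and 0 with DESeq2. Their median log2 difference between lung and spleen was 0.04 and that of all genes -0.99 (0.92 and -0.11 with plain library size). Of the immediate early list, which responds to stimulation and to tissue dissociation, 13 genes were tested and 8 were lower in lung than in spleen with TMMwsp factors, against 22.0% of all genes. The 2 lower under both scalings were *Jun* (-2.54, adjusted p = 0.000118) and *Fosb* (-3.25, adjusted p = 0.000583). Of 7 interferon response genes tested, 5 were called lower in lung (*Ifi27l2a*, *Irf7*, *Bst2*, *Ly6a*, and *Ly6e*), of 10 cell cycle genes 6, of 10 heat shock genes 5, and of 8 MHC class I genes 3, none of them with plain library size. Of 5 receptor signalling genes, *Cd52* and *Ptprcap* were called lower in lung, of 3 regulatory T cell genes *Capg*, and of 3 cytokine genes *Tnf*, again with TMMwsp factors alone. The 7 cytotoxic effector genes tested, 4 lineage factors, 3 residency genes, 2 chemokine receptors, and the 1 gene each of coreceptors, gamma-delta receptor, and innate-like T cells were not called between lung and spleen by edgeR or DESeq2, with 2 of them at an unadjusted p below 0.05. No gene of the type 2 lymphocyte or of the follicular helper and checkpoint list had enough UMIs for a test. Between skin and spleen, the gamma-delta list gave 1 of 1 gene tested (*Trdv4*), the residency list 1 of 3 (*Rgs1*), both higher in skin, and the cell cycle list 1 of 10 (*Hmgb2*, lower in skin with TMMwsp factors alone), against 0.838% of all genes. Between lung and skin, *Trdv4* was the called gene of these lists.

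CIA was compared with healthy mice in lung, with 5 against 4 mice and 35 against 43 T cells. Of 461 genes tested, 4 (0.868%) were called by edgeR, 1 higher and 3 lower in CIA. *Gzma* (chromosome 13, 113093825 to 113100981, minus strand, GRCm38), a granzyme of cytotoxic lymphocytes, was higher. It had 12, 2, 1, 9, and 0 UMIs in S1, S2, S3, S5, and S6 and 0 in the 4 healthy mice (5.49 ± 1.20, adjusted p = 0.00588), at least 8.71-fold against the 3 counts that 0 allows over the healthy lungs. The UMIs came from 7 of 35 T cells of CIA mice and from 0 of 43 T cells of healthy mice, which allows a share of up to 6.98% of cells with a UMI and sets no limit on cells that express the gene. Of these 7 cells, 3 also had a receptor UMI and 4 a UMI of the NK cell list. Other lung cells had 17.1 CPM of *Gzma* in CIA and 0 in healthy mice. *Gzma* was not past the threshold with DESeq2 (adjusted p = 0.20), with experiment as a term (adjusted p = 0.099), without H4 (adjusted p = 0.36), or without S5 (adjusted p = 0.10). Without S1, or in the experiment CIA alone, it had too few UMIs for a test. The cytotoxic effector list had 2 genes tested and this 1 called. Of the other T cell lists, 2 receptor genes, 4 immediate early genes, and 3 genes each of heat shock and MHC class I could be tested, and none was called.

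The 3 genes lower in the lung T cells of CIA mice were *Igkc*, *Ighm*, and *Scgb1a1*, which are 2 of the 3 B cell genes and 1 of the 2 lung epithelium genes tested. *Igkc*, the kappa constant region, had 0, 451, 473, 467, and 258 CPM in S1, S2, S3, S5, and S6 and 948, 4729, 500, and 1355 CPM in H3, H4, H6, and H7 (-2.71 ± 0.62, adjusted p = 0.00588), without overlap. Of all 461 genes tested, 9 did not overlap between CIA and healthy lungs. *Ighm* was lower (-2.58, adjusted p = 0.0290), with 71 of its 83 UMIs in 1 cell of H4. *Scgb1a1* was lower (-2.34, adjusted p = 0.0406), and in other lung cells it stood at 7447 CPM in CIA and 38831 CPM in healthy mice. Without the cells that held over 50% of an organ's UMIs of a gene, *Gzma* alone was called and none of these 3. Without S1, edgeR called 0 of these genes (28 at an unadjusted p below 0.05), and *Gzma* had too few UMIs for a test. It called 1 of them without H4, 1 without S2, and 2 without S5. DESeq2 called 0 (12 at an unadjusted p below 0.05), as did edgeR with experiment as a term (26 unadjusted) and in the experiment CIA alone (10 unadjusted). Of the interferon response list, 1 gene could be tested in lung and was not called. Summed over its 15 genes, lung T cells had 0, 582, 0, and 0 CPM in H3, H4, H6, and H7 and 743, 1128, 1184, 934, and 1289 CPM in S1, S2, S3, S5, and S6. These groups did not overlap, and neither did those of the other lung cells (62.5 to 426 CPM in healthy and 967 to 2565 CPM in CIA mice). The T cell sums of H3, H6, and H7, at 0, held only 4219, 4001, and 2214 UMIs. A 0 there allows up to 3 UMIs, so in the T cells the separation lies near the limit of counting. The granulocyte list of lung T cells stood at 948, 291, 250, and 0 CPM in healthy and 1114, 3159, 1894, 2102, and 258 CPM in CIA mice. The other lung cells had 345 to 602 and 3746 to 18088 CPM of this list. The part of RNA from other cells in these values was not tested.

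In spleen cells labelled T cells, CIA was compared with healthy mice in 5 against 4 mice. Of 2945 genes tested, 10 (0.340%) were called by edgeR, 7 higher and 3 lower in CIA, and the 7 were *S100a8*, *S100a9*, *Camp*, *Lyz2*, *Wfdc17*, *Ifi27l2a*, and *Ifi202b*. *S100a8*, a subunit of the neutrophil protein calprotectin, had 951, 83.3, 192, and 262 CPM in H3, H4, H6, and H7 and 6814, 10128, 9858, 1919, and 334 CPM in S1, S2, S3, S5, and S8 (3.98 ± 0.61, adjusted p = 8.78e-08). *S100a9*, its partner, rose by 3.38 on the log2 scale (adjusted p = 0.000217), and *Camp*, an antimicrobial peptide of neutrophil granules, by 4.31 (adjusted p = 0.0130). *Lyz2* had 82.7, 83.3, 0, and 131 CPM in the healthy and 1880, 1752, 2037, 352, and 1334 CPM in the CIA spleens (4.32 ± 0.77, adjusted p = 2.27e-05), without overlap. *Wfdc17*, a gene of activated myeloid cells, had 41.3, 0, 0, and 0 CPM in the healthy and 483, 357, 1308, 384, and 334 CPM in the CIA spleens (4.84 ± 1.02, adjusted p = 0.000972), also without overlap. The values of H3 and S8 are single UMIs of sums of 24191 and 2998 UMIs, so this separation depends on depth. Of all 2945 genes tested, 42 did not overlap between the groups, and 2 of these were called.

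The interferon-induced gene *Ifi27l2a* (chromosome 12, 103442167 to 103443680, minus strand, GRCm38) had 124, 83.3, 192, and 393 CPM in the healthy and 1518, 977, 729, 608, and 0 CPM in the CIA spleens (2.62 ± 0.70, adjusted p = 0.0496). The 0 of S8 stands in a sum of 2998 UMIs from 4 cells and allows up to 3 UMIs, so S8 cannot be placed against the healthy mice. *Ifi27l2a* was not called with DESeq2 (adjusted p = 0.30), with experiment as a term (adjusted p = 0.41), in the experiment CIA alone (1.10, edgeR adjusted p = 1.00), or without any single one of H3, H4, H6, H7, S1, S2, S3, and S5 (edgeR adjusted p = 0.058 to 0.47). *Ifi202b*, another interferon-induced gene, was higher (4.28, adjusted p = 0.0137), with 66 of its 100 UMIs in S1, and was not called without S1 (adjusted p = 0.90), without any single healthy mouse (edgeR adjusted p = 0.052 to 0.15), with DESeq2 (adjusted p = 0.73), or with experiment as a term (adjusted p = 0.61). Summed over the interferon response list, the spleens overlapped, with 744, 916, 2493, and 1573 CPM in the healthy and 2933, 2085, 1408, 1279, and 2335 CPM in the CIA mice, and 1 of its 7 tested genes was called. *Igkj4*, *Igkv3-1*, and *Jchain* (-2.78) were lower in CIA, but 103 of 112, 26 of 30, and 56 of 105 UMIs of these genes came from 1 cell of H3.

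The same direction was seen in the other spleen cells for 9 of the 10 genes, against 56.0% of all genes tested. *S100a8* stood there at 54222 CPM in CIA and 7326 CPM in healthy mice, *Lyz2* at 4123 and 1420 CPM, and *Ifi27l2a* at 1182 and 206 CPM. Over the granulocyte list, of which 3 of 7 tested genes were higher, the spleen cells labelled T cells had 1571, 417, 192, and 786 CPM in healthy and 10040, 15180, 13807, 3038, and 667 CPM in CIA mice. The part of RNA from other cells, and of cells of another type under the label, was not tested. Of the 3 receptor genes tested, edgeR called 0, with 0 at an unadjusted p below 0.05 and 0 with DESeq2, and neither did it call any of 13 immediate early, 10 heat shock, 10 cell cycle, 8 MHC class I, or 6 cytotoxic effector genes. With DESeq2, 1 gene was called (*Lyz2*). The count of 10 was 6 without H3 or H4 and 18 without S8. It was 6 with experiment as a term and 4 in the experiment CIA alone, of which 0 were among the 10. Over cells with a receptor UMI alone, 1 gene was called, which was not among the 10.

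**Figure D4:**
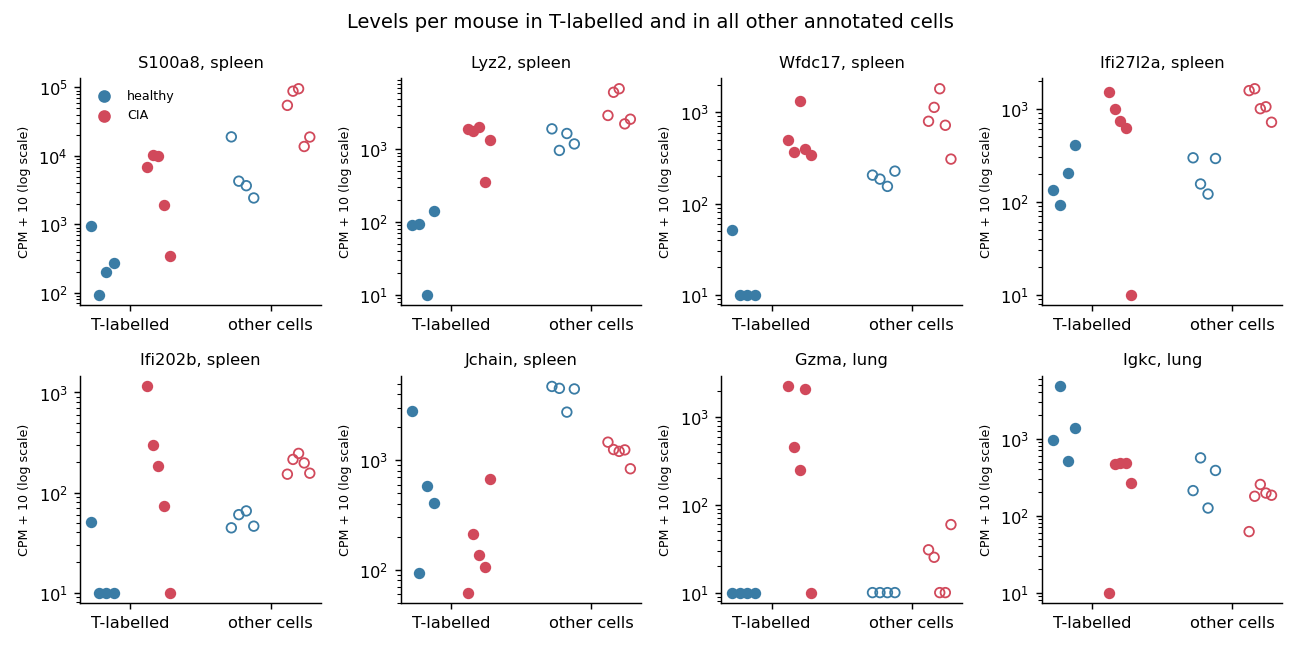
Levels (CPM + 10, log scale) of 6 genes in spleen and 2 in lung in each healthy and CIA mouse, with T-labelled cells as filled and all other annotated cells of the same organ as open symbols. *Lyz2* and *Wfdc17* in the spleen cells labelled T cells and *Igkc* in the lung T cells do not overlap between the groups, at values that include 0 or single UMIs. Over all genes tested, 42 of 2945 do not overlap in spleen and 9 of 461 in lung. *S100a8* is higher in CIA mice in the other spleen cells as well (54222 against 7326 CPM).

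The CIA effect was compared between lung and spleen with an interaction term over 3436 genes. edgeR called 0 genes (0%; 211 at an unadjusted p below 0.05), and DESeq2 also called 0 (44 at an unadjusted p below 0.05). Other settings of edgeR called 1 gene with TMM factors and 2 genes each with plain library size, with at least 5 cells per sample, and without S8. In skin, 2 healthy and 2 CIA mice had at least 3 T cells, and no test was made. *Trdv4* had 12 and 3 UMIs in H4 and H7 and 0 and 1 in S1 and S2, and *Rgs1* had 4340 and 815 against 415 and 924 CPM. The tissue residency list summed to 5710 and 1223 CPM in H4 and H7 and 1659 and 3003 CPM in S1 and S2, so the values of the CIA mice lay between those of the healthy mice. The regulatory T cell list was at 685 and 1223 against 2903 and 1155 CPM, which overlapped as well.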

How the data were processed

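The authors aligned the reads to GRCm38 with STAR, counted UMIs with the Drop-seq tools, and deposited the raw UMI counts together with a cell type per cell, assigned from denoised counts, reference profiles, clusters, and markers. The table holds whole numbers for 34586 genes in 13240 cells, of which 12096 had a type. Filters on low UMIs, low genes, and mitochondrial share had been applied by the authors. Doublets were neither called nor removed here.

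Counts of cells labelled T cells were summed per organ and mouse, so that the mouse was the replicate. In the gene tests, edgeR pooled the quasi-likelihood spread between mice over genes. Pooling was complete in the organ, spleen, and interaction fits (prior degrees of freedom infinite) and strong in the lung fit (100). A gene's own spread between mice thus had little or no weight in its p-value. The organ fit took samples of the same mouse as independent. Sums of at least 3 cells entered edgeR 4.0.16 (R 4.3.3), whose quasi-likelihood test was run on genes with at least 15 UMIs in all and 1 UMI in at least 3 samples, with TMMwsp factors and Benjamini-Hochberg adjustment at 0.05. Standard errors were derived from log2 values and F statistics. In the comparisons of genes, the level of a gene in the other cells is the mean of the CPM of the compared mice. Levels of lists and leading genes given for a whole organ pool the UMIs of all its cells, so these levels need not add up. On simulated data, TMMwsp factors lowered unchanged genes in the shallow lung and skin samples against spleen, so plain library size is reported beside them. DESeq2 1.42.0 was the alternative tool, and shares were tested by exact permutation with scipy 1.17.1. Intervals and limits cover counting error only. A fold against 0 uses a floor of 3 counts over the group and plain library sizes. Same-named samples come from the same animal. Their deviations from the group means correlated at -0.12 to 0.12 (median 0.0083, 16 pairs, 203 genes, log scale with a pseudocount of 50 CPM), and a fit with the mouse as block served as alternative. Alternatives over cells with a receptor UMI required a UMI of *Cd3d*, *Cd3e*, *Cd3g*, *Trac*, *Trbc1*, *Trbc2*, or *Trdc*.

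The genes named were up to 10 per direction and comparison with the largest called difference, those without overlap first, then called genes of the T cell lists, and receptor and marker genes. Others are said to be chosen later, and leading genes are a ranking by fold. The members and lists were chosen with earlier results of these data known. Gene positions are those of GENCODE vM21 on GRCm38.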

Additional observations from a re-analysis of the deposited data

Results flagged for a closer look

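Of 48 groups of 4 to 10 mice that were tested for a sample far from the others, 16 had one, where chance gives about 1 in 20 groups of continuous values. That rate does not apply to genes at 0 in the other healthy spleens (*Camp*, *Ifi202b*, and *Wfdc17*) or to genes whose UMIs came mostly from 1 mouse (*Igkj4* and *Igkv3-1*). In healthy lungs, H4 stood apart with 25 T cells and with 5384 CPM of *Ighm*, and H3 with 2370 CPM of the receptor list, and in CIA lungs S3 stood apart with 947 CPM of *Ighm*. In spleen, S3 stood apart with a T cell share of 29.87% and with 1308 CPM of *Wfdc17*. The gamma-delta list stood apart in the spleens of H7 (262.1 CPM) and S5 (223.9 CPM). In healthy spleens, H3 stood apart for *Camp*, *Ifi202b*, and *Wfdc17*, with 41.34 CPM each, which is 1 UMI, and for *Igkj4* with 4506 CPM and *Igkv3-1* with 1075 CPM. In CIA spleens, S1 stood apart for *Ifi202b* (1139 CPM), S2 for *Igkj4* (23.83 CPM), and S8 for *Jchain* (667.1 CPM).

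Receptor genes were also found outside the T cell label. Spleen cells labelled NK cells had 2507 CPM of the 7 receptor genes, against 492 CPM in the spleen cells labelled T cells. Of the cells without a deposited type, 3 of 108 in lung, 6 of 156 in skin, and 81 of 396 in spleen had a receptor UMI.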

How the results depend on the processing

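Between lung and spleen, 788 genes were called, and 114 with plain library size, 328 with DESeq2, 23 with filterByExpr, 347 with every gene of at least 1 UMI, 7 over cells with a receptor UMI, 9 in the experiment CIA alone, 11 in healthy mice alone, 224 in CIA mice alone, and 314 to 855 when 1 mouse was left out. With the mouse as a replicate block, 368 were called. *Hmgb2* (0.16) and *Ifi27l2a* (0.25) turned higher in lung over cells with a receptor UMI. Between skin and spleen, the 30 called genes became 154 with DESeq2, 6 with filterByExpr, 18 with every gene, 776 with samples of at least 1 cell, 9 over cells with a receptor UMI, 9 in the experiment CIA alone, 8 in CIA mice alone, and 14 to 86 when 1 mouse was left out. Between lung and skin, 12 became 19 with plain library size, 0 with DESeq2, 1 with filterByExpr, 7 with at least 1 cell, 0 over cells with a receptor UMI (42 unadjusted), 7 in the experiment CIA alone, 3 with the replicate block, 7 in healthy mice, 0 in CIA mice, and 1 to 13 when 1 mouse was left out. For CIA in lung, 4 became 0 with DESeq2, filterByExpr, the experiment as a term, or the experiment CIA alone (12, 2, 26, and 10 unadjusted), and 0 to 4 when 1 mouse was left out. For CIA in spleen, 10 became 1 with DESeq2, 2 with filterByExpr, 18 with at least 5 cells, 1 over cells with a receptor UMI, 6 with the experiment as a term, 4 in the experiment CIA alone, and 6 to 18 when 1 mouse was left out. The interaction gave 1 gene with TMM, 2 with plain library size, 2 with at least 5 cells, and 0 to 2 when 1 mouse was left out. The replicate block changed no other count by over 1.5 times.

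In shares, lung and spleen differed by 41.73 points without the most frequent label, and lung and skin by 0.7799 points over cells with a receptor UMI and by 5.072 in the experiment CIA alone, where skin and spleen differed by 0.5314. Over cells with a receptor UMI, CIA and healthy mice differed by -1.92 points in lung, -3.454 in skin, and -0.4039 in spleen. CIA and healthy spleens differed by -0.0883 in the experiment CIA alone, and by -1.27 without S3. When 1 mouse was left out, the differences were 0.07697 to 3.011 for lung and spleen, -6.533 to -2.167 for skin and spleen, 5.178 to 6.768 for lung and skin, and for CIA -4.851 to -1.851 in lung, -5.784 to -2.297 in skin, and -1.27 to 5.744 in spleen. Without the pairing of mice, the calls on shares were the same.

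Alternatives chosen after seeing the data were factors from genes found in every sample (105 genes between lung and spleen with 68 higher, 42 between skin and spleen with 30 higher, 2 for CIA in lung with 1 higher, and 2 for the interaction), cells with a receptor UMI from samples of at least 1 such cell (116, 81, and 4 genes between lung and spleen, skin and spleen, and lung and skin, and 0 and 3 for CIA in lung and spleen), and leaving out cells that dominate a gene (1 for CIA in lung). Samples of at least 10 cells left no fit but spleen, and cells with a receptor UMI no disease fit in lung. Values of named genes were counted over all alternatives, including the planned ones and the overlapping fits without 1 mouse. Of these values, 1525 kept direction and side of the threshold, 568 lost the call, and 2 turned. The causes were not tested. Precision is limited by the few T cells per sample and the low UMIs per cell.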
